A study of Mus musculus with 6 samples.

Results

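The enzymes described here break down the branched-chain amino acids leucine, isoleucine and valine, and their transcripts were measured in mouse aorta after high fat feeding or regular chow. The 10 genes were taken from a list of the pathway: Bcat2, Bckdha, Bckdhb, Dbt, Ivd, Mccc1, Mccc2, Pcca, Pccb and Hibadh. Out of 12393 genes on the array they were matched by gene symbol to 12 of 22626 probe sets, groups of short probes meant to report 1 transcript each. Ivd and Hibadh had 2 of these probe sets each and the other members had 1. RNA was read on 6 Affymetrix arrays, 3 per diet. For each, 3 aortas stripped of adventitia and surrounding fat were pooled, so that n = 3 pools per diet throughout. Every pool came from C57BL/6J, an inbred strain that gains weight on fatty food, and carried no transgene or drug treatment in the labels. The high fat diet was given for 16 to 18 weeks, from 10 weeks of age in replicates 2 and 3. An age of 26 to 28 weeks is given for replicates 2 and 3 on chow. High fat replicate 1 has a label that gives an age of 16 to 20 weeks and no sex, that of chow replicate 1 gives no age, and all other labels give males, so that replicates 1 cannot be matched for age from the labels.

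In this pathway an aminotransferase in mitochondria first removes the amino group, and a large complex, the branched-chain ketoacid dehydrogenase, then cuts off a carboxyl group in the step that commits the carbon skeleton to breakdown. Leucine is carried on to acetyl-CoA and acetoacetate through isovaleryl-CoA dehydrogenase and a biotin-dependent carboxylase. Valine and isoleucine yield propionyl-CoA, which another biotin-dependent carboxylase feeds towards the tricarboxylic acid cycle. Muscle, heart and brown fat are known for high use of this pathway, and adipose tissue is known to lower it in obesity.

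Promoter sequences are shown for Bckdhb, Pcca and Mccc1, the members whose arrays did not overlap between the diets, and for Ivd, the member with a lower mean in each of its 2 probe sets. Each runs 5′ to 3′ from 250 bases before to 50 bases after a start site, from RefSeq on build GRCm38.p6, and where RefSeq lists 2 starts the one richer in CG dinucleotides is printed. Capitals mark AGGTCA, the hexamer bound by nuclear receptors, and GGGCGG, the GC box, on either strand.
Bckdhb, chr9:83924887-83925186, plus strand: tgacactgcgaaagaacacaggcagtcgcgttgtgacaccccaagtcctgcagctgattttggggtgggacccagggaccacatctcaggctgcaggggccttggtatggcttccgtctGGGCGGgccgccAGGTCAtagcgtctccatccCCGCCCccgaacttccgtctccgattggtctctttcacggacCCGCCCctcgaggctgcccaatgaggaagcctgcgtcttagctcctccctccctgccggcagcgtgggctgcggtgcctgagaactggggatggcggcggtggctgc
Pcca, chr14:122534078-122534377, plus strand: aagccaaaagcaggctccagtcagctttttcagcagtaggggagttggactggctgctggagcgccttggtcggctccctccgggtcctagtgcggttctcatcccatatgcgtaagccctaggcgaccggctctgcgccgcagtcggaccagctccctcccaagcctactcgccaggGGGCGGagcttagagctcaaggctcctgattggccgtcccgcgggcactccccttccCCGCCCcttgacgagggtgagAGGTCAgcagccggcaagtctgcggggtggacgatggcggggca
Mccc1, chr3:36000629-36000928, minus strand: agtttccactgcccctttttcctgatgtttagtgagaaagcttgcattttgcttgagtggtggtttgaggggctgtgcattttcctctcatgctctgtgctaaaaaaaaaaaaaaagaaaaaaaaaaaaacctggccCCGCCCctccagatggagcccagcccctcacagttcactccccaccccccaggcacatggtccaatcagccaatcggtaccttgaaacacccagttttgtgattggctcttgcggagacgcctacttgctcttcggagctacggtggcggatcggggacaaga
Ivd, chr2:118861744-118862043, plus strand: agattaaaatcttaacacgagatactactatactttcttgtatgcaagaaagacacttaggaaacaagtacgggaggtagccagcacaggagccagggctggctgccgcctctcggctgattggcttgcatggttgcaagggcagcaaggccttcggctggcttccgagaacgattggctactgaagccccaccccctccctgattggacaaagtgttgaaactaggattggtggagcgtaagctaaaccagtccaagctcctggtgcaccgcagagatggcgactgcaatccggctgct

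The table held 12 starts for 9 of the 10 members. AGGTCA occurred in 4 of these 12 windows, in Bckdhb, in Hibadh and at each Pcca start, against 16.3% of 32851 mouse promoter windows of the same length. In the printed windows its first base lay at -119 in Bckdhb and at 7 in Pcca, counted from the start site. GGGCGG occurred in 4 of the 12, in Bckdhb, Pcca, Mccc1 and Hibadh, against 35.7%. The longer AAGGTCA, the form favoured by estrogen-related receptors, was in 0 of 12, against 4.72%. A direct repeat of AGGTCA with 1 base between, the form bound by PPAR with RXR and overlapping the single hexamer by construction, was in 0 of 12, against 0.0396%. These matches describe letters in a window and not binding.

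None of the members passed the test for a diet difference, and the measured differences went both ways. Of the 12 probe sets, 11 in 9 genes were bright enough to be tested, and 0 of them had an adjusted p under 0.05 over all 13575 probe sets tested (limma, smallest adjusted p = 0.632), where 0.0737% of all probe sets did. Means were higher on high fat diet for 7 of the 11, against 48.2% of all probe sets, with a median log2 fold change of 0.10, against -0.01 over all. For 3 of the 11 every high fat array lay above every chow array, those of Bckdhb, Mccc1 and Pcca, where 6.26% of all probe sets were higher and 6.08% lower without overlap. At an unadjusted p under 0.05 there was 1 member probe set, that of Bckdhb, which was higher, where 3.92% of all were higher and 3.11% lower. With 1 probe set among 11 at that mark, little can be read from its share. For all 11, the 95% interval of the log2 fold change (limma) lay within a 2-fold change in either direction. In these intervals the variance is drawn towards that of probe sets of like signal. This narrows them for Dbt and Bcat2, whose own log2 SDs within a diet were 0.54 and 0.43, against a member median of 0.17.

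**Figure D1:**
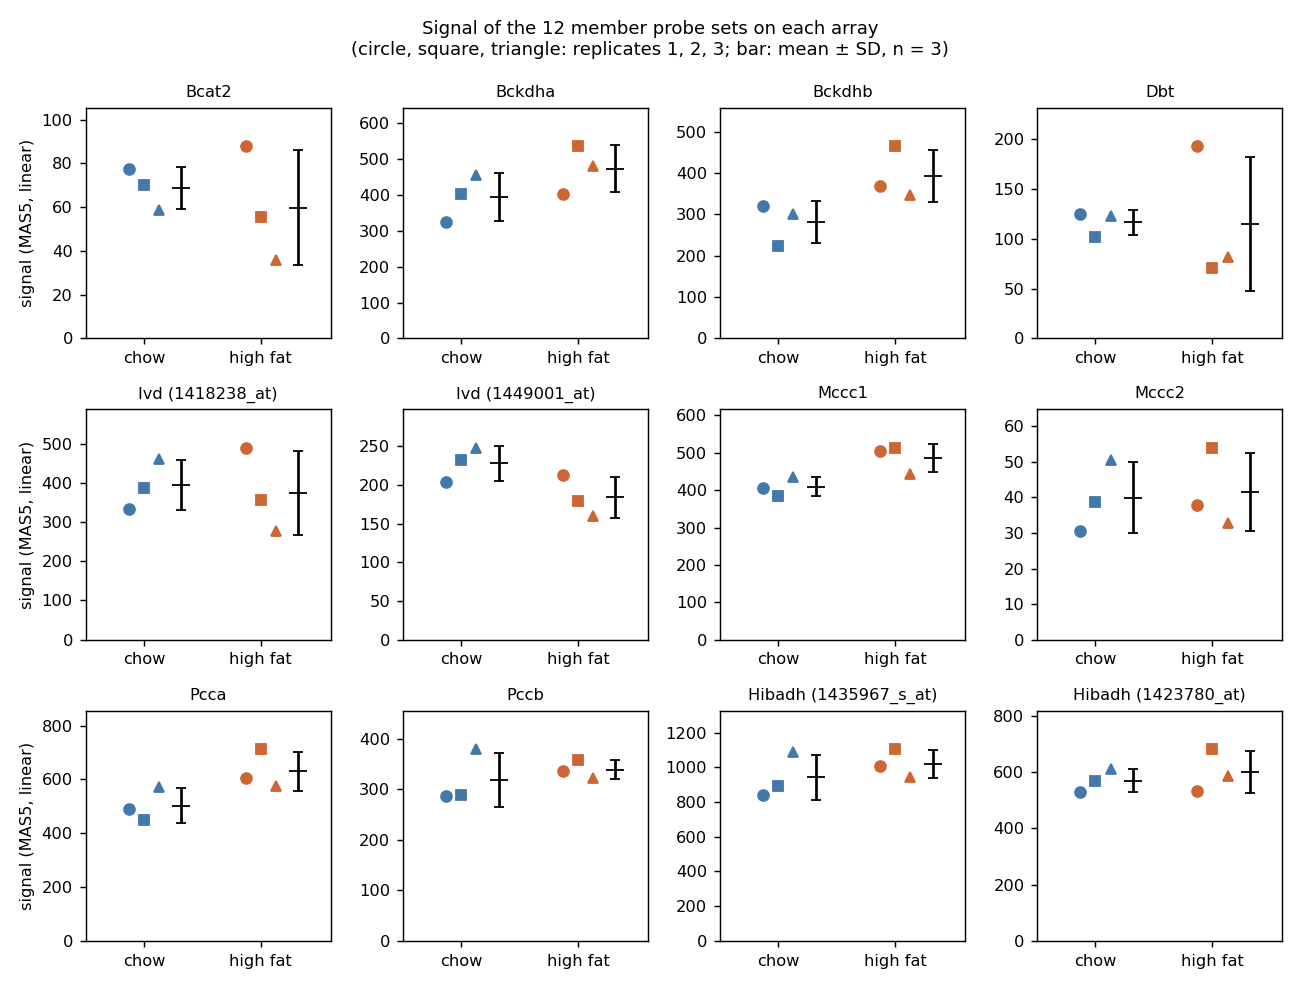
Signal on a linear scale (vertical axis) of the 12 member probe sets on the 3 chow and the 3 high fat arrays, with the mean and SD of each diet. The points of the diets are separate for Bckdhb, Mccc1 and Pcca, and 1 high fat array stands far above the other 2 for Dbt.

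Bcat2, the mitochondrial aminotransferase that opens the pathway, had signals of 87.7, 55.5 and 35.7 in high fat replicates 1, 2 and 3 and of 77.4, 70.0 and 58.7 in chow replicates 1, 2 and 3. The highest and the lowest of the 6 values were both on high fat diet, so that the diets overlapped. The log2 fold change was -0.26 ± 0.29 (SE, adjusted p = 0.881, limma). Signals were low, and 1 array lay under 40.7, the signal that a probe set's mean had to exceed to be tested. No detection calls were used, so that signals near this level cannot be told apart from background.

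The branched-chain ketoacid dehydrogenase is built from an E1 part that removes the carboxyl group, an E2 core that passes on the acyl group, and an E3 part shared with other dehydrogenases. Bckdhb, the beta subunit of E1, had signals of 367.4, 464.2 and 347.6 on high fat diet and of 320.2, 222.5 and 301.4 on chow. Every high fat array lay above every chow array. Its mean was 393.1 ± 62.4 against 281.4 ± 51.8 (SD), 1.39-fold, with a 95% interval of 1.06 to 1.84, and it missed the threshold (adjusted p = 0.632, limma). The unadjusted p was under 0.05 in 17 of 20 alternative settings, and not without high fat replicate 2, without chow replicate 2 or with the brown adipocyte markers described below in the model.

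Bckdha, the alpha subunit of E1, had signals of 403.6, 534.8 and 481.7 on high fat diet and of 323.9, 402.9 and 454.6 on chow. All 3 high fat arrays were above the chow mean, and high fat replicate 1 lay within the chow range. The log2 fold change was 0.27 ± 0.17 (adjusted p = 0.795). Dbt, the E2 core, had signals of 192.4, 70.2 and 82.0 on high fat diet and of 125.0, 101.4 and 122.3 on chow. High fat replicate 1 was the highest of all arrays and the other 2 high fat arrays the lowest, a 2.74-fold range within that diet against 1.23-fold within chow. The log2 fold change was -0.15 ± 0.31 (adjusted p = 0.942). Without high fat replicate 1 it was -0.57 and still missed the threshold (adjusted p = 0.454).

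Of the genes that act on this complex, Bckdk, the kinase that switches it off by phosphorylating E1, had signals of 226.8, 340.6 and 252.0 on high fat diet and of 210.4, 153.4 and 226.6 on chow. Every high fat array lay above every chow array, though by a fraction of a unit between high fat replicate 1 and chow replicate 3. The log2 fold change was 0.46 ± 0.20 (adjusted p = 0.693). Dld, the shared E3 part, gave 0.39 ± 0.19 on that scale (adjusted p = 0.735), with overlapping diets.

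Ivd, the isovaleryl-CoA dehydrogenase of leucine breakdown, had signals of 490.0, 355.5 and 278.3 on high fat diet and of 334.2, 386.9 and 462.1 on chow in its brighter probe set. Its other probe set gave 212.7, 179.7 and 160.0 against 203.4, 232.0 and 248.3. In each of the 2, high fat replicate 1 was the highest and high fat replicate 3 the lowest array of its diet, and the diets overlapped. The log2 fold changes were -0.10 ± 0.21 (adjusted p = 0.942) and -0.30 ± 0.17 (adjusted p = 0.752). The annotation gives the same source sequence for both probe sets.

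Mccc1, the biotin-carrying subunit of methylcrotonyl-CoA carboxylase in the leucine branch, had signals of 503.5, 513.6 and 444.4 on high fat diet and of 405.5, 385.5 and 435.9 on chow. Every high fat array lay above every chow array, though the gap between high fat replicate 3 and chow replicate 3 was small. Means were 487.2 ± 37.4 against 409.0 ± 25.4 (SD), 1.19-fold, with a 95% interval of 0.962 to 1.47 (adjusted p = 0.752, limma). Mccc2, the partner subunit, had signals of 37.9, 54.0 and 32.8 against 30.7, 38.6 and 50.6, with overlapping diets, and was too dim to be tested. With no filter on dim probe sets its log2 fold change was 0.05 ± 0.29 (adjusted p = 0.989).

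Pcca, the biotin-carrying subunit of propionyl-CoA carboxylase, had signals of 603.7, 713.4 and 575.4 on high fat diet and of 488.6, 448.4 and 572.5 on chow. Every high fat array lay above every chow array, with high fat replicate 3 and chow replicate 3 close together. Means were 630.8 ± 72.9 against 503.2 ± 63.3 (SD), 1.25-fold, with a 95% interval of 0.994 to 1.58 (adjusted p = 0.716, limma). Pccb, its partner subunit, had signals of 337.1, 358.9 and 322.8 against 287.8, 289.2 and 380.3. All 3 high fat arrays were above the chow mean, while chow replicate 3 was the highest of the 6 arrays. The log2 fold change of Pccb was 0.10 ± 0.16 (adjusted p = 0.915).

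Hibadh, the hydroxyisobutyrate dehydrogenase of valine breakdown, had signals of 1009, 1106 and 944.3 on high fat diet and of 842.9, 894.5 and 1088 on chow in its brighter probe set. That probe set carries the suffix _s_at, given to probe sets that can bind several transcripts. The other one gave 532.7, 681.7 and 587.3 against 527.3, 568.9 and 610.9. The diets overlapped in both, and the log2 fold changes were 0.12 ± 0.14 (adjusted p = 0.882) and 0.07 ± 0.14 (adjusted p = 0.939).

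**Figure D2:**
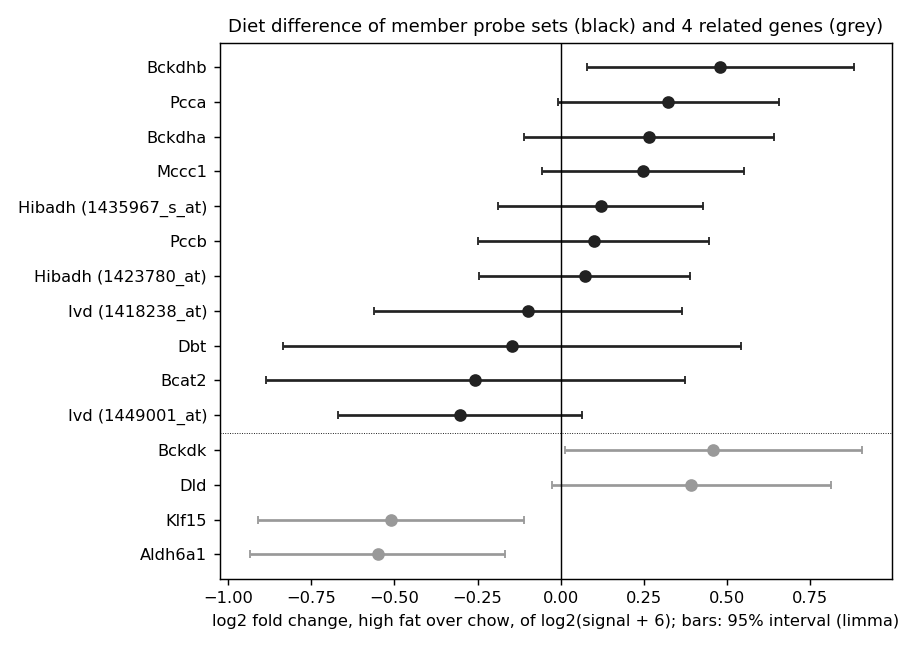
Log2 fold change of high fat over chow (horizontal axis, on the scale of log2(signal + 6)) with 95% intervals for the 11 member probe sets tested (black) and for Bckdk, Dld, Klf15 and Aldh6a1 (grey). Among the members the interval of Bckdhb alone lies wholly above 0, and none lies wholly below it.

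Subunits of 1 enzyme were compared by the difference of their log2 values within each array, which shows whether they moved unequally with diet. Pcca exceeded Pccb by 0.83, 0.98 and 0.82 on the high fat arrays and by 0.75, 0.62 and 0.58 on the chow arrays. It was larger on every high fat array, by 0.22 in the mean (exact permutation test over the 6 arrays, two-sided, p = 0.1, the smallest that 3 against 3 arrays allow, adjusted p = 0.4 over 4 pairs). The pair of Mccc1 and Mccc2 was among the 4, but Mccc2 was too dim for its value to be read. For Bckdha and Bckdhb the means differed by -0.21 (exact permutation p = 0.5), and for Bckdha and Dbt by 0.41 (exact permutation p = 0.5), each with adjusted p = 0.5 and with overlapping diets.

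The arrays of 1 diet differed among themselves in a way that divided the members. High fat replicate 2 was the highest of the 6 arrays for 7 of the 12 probe sets, and high fat replicate 1 for 3, those of Bcat2, Dbt and the brighter Ivd probe set. As given above, the label of high fat replicate 1 states no sex and an age that cannot be matched. The part of age or sex in this division was not tested. High fat replicate 3 was the lowest array for Bcat2 and for each of the 2 Ivd probe sets. Across the 6 arrays, Bcat2, Dbt and Ivd correlated with one another at Pearson r of 0.69 to 0.75. The other 6 tested genes correlated among themselves at 0.49 to 0.96, the highest being Hibadh with Pccb (Spearman rho 0.94). The 18 pairs across these sets ran from -0.66, for Bckdha with Bcat2, to 0.43. This division was made after the values were seen, and the values, over 6 shared arrays of 2 diets, are a description. As deviations from each diet's own mean, the ranges were 0.68 to 0.74 within Bcat2, Dbt and Ivd, 0.07 to 0.96 within the other 6, and -0.65 to 0.70 across.

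**Figure D3:**
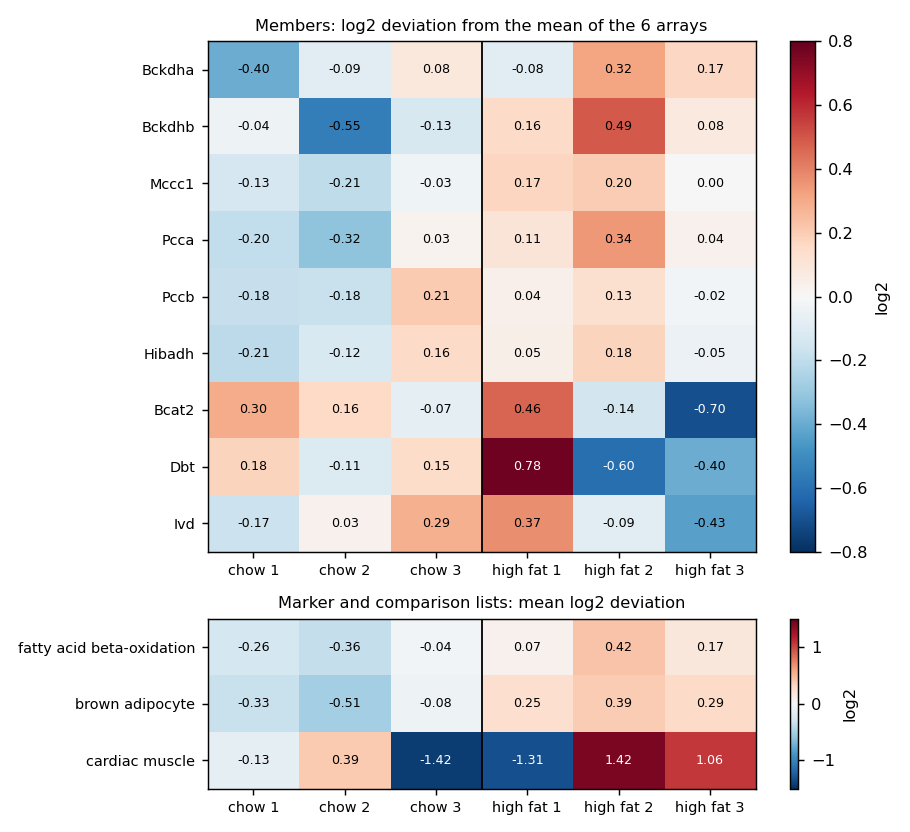
Log2 deviation of 9 members (rows, brighter probe set of each gene) from their mean over the 6 arrays (columns), with the mean deviation of fatty acid oxidation genes, brown adipocyte markers and cardiac markers below. Bcat2, Dbt and Ivd are highest in high fat replicate 1, where the cardiac markers stand at -1.31, and negative in high fat replicates 2 and 3, where these stand at 1.42 and 1.06. On chow this order holds in full for none of Bcat2, Dbt and Ivd, and in part for Ivd and Dbt. Ivd is highest on chow in replicate 3 (0.29), where the cardiac markers are lowest. Dbt is lowest on chow in replicate 2 (-0.11), where these markers are highest. Bcat2 is at -0.07 in replicate 3, where the cardiac markers are lowest (-1.42), and at 0.16 in replicate 2, where they stand at 0.39. In chow replicate 1, where the cardiac markers stand at -0.13, Dbt is at its highest on chow (0.18) and Ivd at its lowest (-0.17).

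The tissue label was checked on marker genes. All 12 smooth muscle markers and all 10 endothelial markers passed the filter, with higher means on high fat diet for 2 and 9 of them, and Acta2 had the highest mean signal on the array. Markers of other cell types were present too. The summed signal of 9 brown adipocyte markers was 10789 to 12960 on high fat diet and 6938 to 9198 on chow, without overlap, with Ucp1 at 3154 to 3664 against 2122 to 2724 and none of the 9 at 0. That of 13 cardiac muscle markers was 1219 to 10690 on high fat diet and 1099 to 5338 on chow, and none was at 0. For 9 white adipocyte markers it was 11443 to 12471 against 11674 to 15045, and for 10 macrophage markers 2600.5 to 4422 against 2005 to 2598, barely without overlap. For 8 fibroblast markers it was 12369 to 12885 against 12110 to 14233, and for 6 nerve and Schwann cell markers 1487 to 1862 against 1404 to 1669. For 5 hepatocyte markers it was 311.7 to 467.6 against 408.4 to 933.2, the highest in chow replicate 3. Means were higher on high fat diet for 4 of 8 fibroblast, 4 of 5 tested nerve and 0 of 5 hepatocyte markers. For 10 skeletal muscle markers the summed signal was 363.2 to 631.8 against 421.9 to 1102. Of these 4 were bright enough to be tested, with a median log2 fold change of -0.59. Tnnc2 (-1.45) and Atp2a1 (-0.73) were lower on every high fat array (adjusted p = 0.330 and 0.445, limma). The diets overlapped for Acta1 (-0.44) and Ckm (0.13). The white adipocyte markers did not move as 1, since 6 of the 8 tested had higher means on high fat diet (list median log2 fold change 0.07). The 2 lower ones were Car3 (-0.91, adjusted p = 0.0768) and Retn (-1.06, adjusted p = 0.0435, limma), of which Retn passed the threshold. In bulk RNA, fewer cells of a type and less RNA per cell cannot be told apart. High fat replicate 2 correlated least with the other arrays (mean r 0.945, against 0.952 to 0.960), and the actin control ratio, 3′ over 5′ probe set, ran from 1.27 in high fat replicate 1 to 1.94 in high fat replicate 2. The part of these in the members' values was not tested beyond the following fits.

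With the cardiac marker mean in the model, Bckdhb had a log2 fold change of 0.48, Pcca of 0.34 and Mccc1 of 0.28, while Dbt went from -0.15 to 0.16 and the brighter Ivd probe set from -0.10 to 0.068. With the brown adipocyte marker mean in the model, Bckdhb had -0.10, Pcca -0.16 and Mccc1 0.05, and the median over the 11 probe sets was -0.16. That marker mean did not itself overlap between the diets, so that little of it can be told apart from diet with 3 residual degrees of freedom. No member passed in either fit (limma).

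The other genes of the pathway also had differences in both directions. Of 21 on the array, 19 were tested, 14 with higher and 5 with lower means on high fat diet, and 0 passed over all probe sets (smallest adjusted p = 0.531, limma). At an unadjusted p under 0.05, with 1 probe set per gene, 1 was higher and 1 lower, where 4.28% of 8327 genes were higher and 2.71% lower. The higher one was Bckdk, given above. The lower one was Aldh6a1, the methylmalonate semialdehyde dehydrogenase that follows Hibadh in valine breakdown, with signals of 235.9, 201.9 and 260.2 on high fat diet and of 409.7, 288.6 and 337.2 on chow. Every high fat array lay below every chow array, and the log2 fold change was -0.55 ± 0.17 (adjusted p = 0.531). Hibch, the hydrolase just before Hibadh, had a log2 fold change of 0.34 ± 0.21, and its diets overlapped (adjusted p = 0.786). Acad8, the isobutyryl-CoA dehydrogenase earlier in that branch, had 0.15 ± 0.15 (adjusted p = 0.864), with every high fat array above every chow array.

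In the leucine branch Auh, the hydratase after methylcrotonyl-CoA carboxylase, had 0.22 ± 0.17 (adjusted p = 0.821). In isoleucine breakdown Acadsb, the short and branched-chain acyl-CoA dehydrogenase, had -0.22 ± 0.15 (adjusted p = 0.798) and Acat1, a thiolase that also serves ketone bodies, had 0.31 ± 0.15 (adjusted p = 0.736). Oxct1, which activates acetoacetate for use as fuel, had signals of 2008, 1397 and 1579 against 2231, 2012 and 1815, and the diets overlapped. After the propionyl-CoA step, Mcee had 0.14 ± 0.16 and Mmut, the cobalamin-dependent mutase, 0.14 ± 0.21, and neither passed (adjusted p = 0.881 and 0.914). Bcat1, the cytosolic aminotransferase, was too dim to be tested, at 37.8, 45.3 and 35.7 against 35.6, 23.6 and 26.9, each high fat value above each chow value.

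Klf15, a transcription factor known to activate genes of this pathway in muscle, had signals of 313.8, 209.8 and 287.2 on high fat diet and of 362.1, 350.2 and 440.9 on chow. Every high fat array lay below every chow array, with a log2 fold change of -0.51 ± 0.18, and it missed the threshold (adjusted p = 0.586, limma). Ppargc1a, a coactivator of mitochondrial genes, had 55.8, 73.8 and 78.7 against 39.1, 53.9 and 58.9, and its diets overlapped (log2 fold change 0.42 ± 0.23, adjusted p = 0.752).

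Set beside other mitochondrial enzymes, with the brightest probe set of each gene, the members had a median log2 fold change of 0.12 over 9 genes, and the median of all 8327 genes was 0.00500. The median was 0.49 over 17 genes of fatty acid oxidation, 0.35 over 16 genes of the tricarboxylic acid cycle and 0.18 over 7 genes of the pyruvate dehydrogenase complex and its kinases. Means were higher on high fat diet for 6 of the 9 members, 16 of the 17, 16 of the 16 and 5 of the 7, against 50.8% of all genes. An unadjusted p under 0.05 in the higher direction was found for 1, 12, 9 and 2 of them, against 4.28% of all genes, and no gene of these 4 lists passed adjusted over all probe sets in this choice of probe sets (limma, smallest adjusted p = 0.299). The lists were not tested against one another. The brown adipocyte markers had a median of 0.55, with higher means for 8 of the 8 tested and no overlap for 5. Cardiac markers had a median of 0.71, with higher means for 13 of the 13 tested and no overlap for 0. For macrophage markers it was 0.57, with higher means for 8 of the 9 tested, and 3 higher and 1 lower without overlap. Medians of the remaining marker lists ran from -0.59 in skeletal muscle to 0.38 in nerve and Schwann cells. The part of any of these cell types in these values was not tested. In fatty acid oxidation the 12 were Cpt2, Etfa, Decr1, Hadha, Slc25a20, Hadh, Acaa2, Etfdh, Hadhb, Acadl, Acadvl and Acads, with log2 fold changes from 0.41 for Hadh to 0.78 for Cpt2, a carnitine palmitoyltransferase. In the tricarboxylic acid cycle the 9 were Idh3a, Suclg1, Dlst, Sdhb, Idh2, Idh3b, Cs, Sdhd and Sucla2, from 0.33 for Sucla2 to 0.60 for Idh3a, a subunit of isocitrate dehydrogenase. For pyruvate dehydrogenase they were Pdhb, its E1 beta subunit, at 0.45 ± 0.17, and Pdk4, a kinase that switches it off, at 0.62 ± 0.22.

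**Figure D4:**
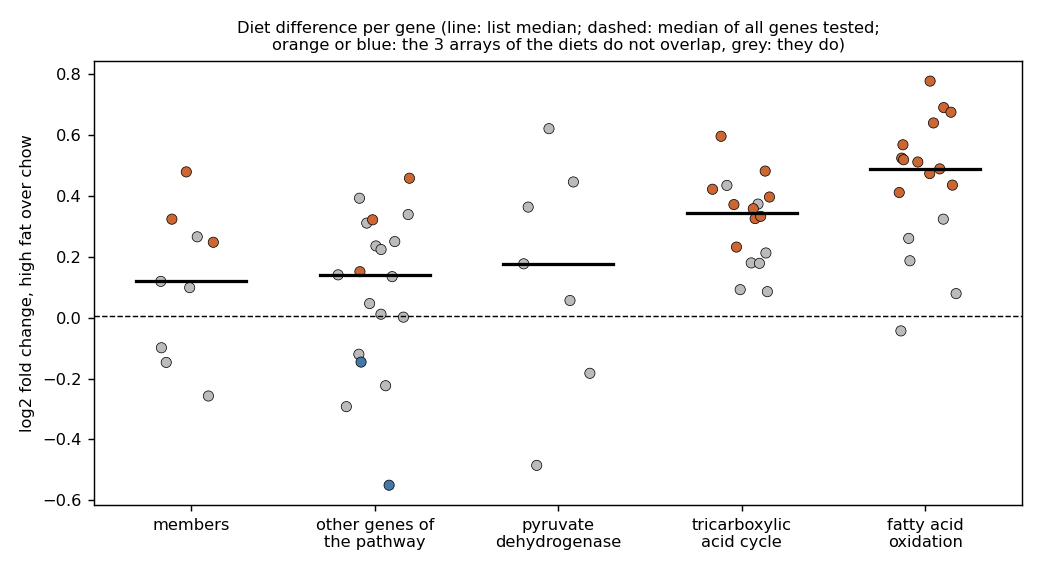
Log2 fold change of high fat over chow (vertical axis) for each tested gene of the members and of 4 other lists, with the list medians as lines and the median of all genes dashed. The members run from -0.26 to 0.48 with 3 genes in orange, whose high fat arrays all lay above chow, and in fatty acid oxidation 12 of 17 genes are orange, against 6.79% of all genes (5.78% lay below chow without overlap).

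The genes whose pattern over the 6 arrays was most like the mean of the 9 tested members were Hs3st3b1, Flywch1, Mien1, Rad23b and Itga9, with Pearson r of 0.972 to 0.988 and Spearman rho of 0.77 to 1.0. They are the top of 8197 genes ranked on 6 arrays, of which 83 reached an r above 0.9. The mean was taken over unscaled log2 deviations, so that members with a wide spread weigh most in it. In high fat replicate 1 Dbt, Bcat2 and Ivd stood at 0.78, 0.46 and 0.37, and the others from -0.08 for Bckdha to 0.17 for Mccc1. The likeness is therefore to this mean and not to each member. Averaged over the 9 members, the log2 deviation was 0.23, 0.09 and -0.15 on the high fat arrays and -0.10, -0.15 and 0.08 on the chow arrays, so that this mean did not separate the diets.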

How the data were processed

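Per the labels' protocols, RNA was isolated with a column kit and 5 µg was labelled with biotin. Each deposited value is a linear signal intensity of 1 probe set on 1 array, which the authors made with MAS5, per the submitters' processing notes, whose version and options the sources used here do not state. All 6 arrays had a 2% trimmed mean of 150.05, and no further scaling was applied. Median signals were 58.4 to 66.6. The number of arrays limits the precision, and a p-value here reflects differences among pools of aortas.

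Of 22690 probe sets, 64 controls were left out. Members were matched by the single gene symbol of the platform annotation, and all 10 kept their symbol by gene ID in RefSeq. Signals were transformed as log2(signal + 6), so that fold changes of dim probe sets are understated. A probe set was tested if its mean on this scale exceeded the 40th percentile (signal 40.7). High fat was set against chow by two-sided moderated tests (lmFit and eBayes, trend in the variance, limma 3.58.1, R 4.3.3), and p was adjusted over all 13575 tested probe sets by Benjamini-Hochberg, at a threshold of 0.05. No p was adjusted over the members alone. Where a gene had several probe sets, lists used the one of highest mean. Of each list beside the members, genes with an unadjusted p under 0.05, or else the 2 of smallest p, were named by rule. Other genes of the pathway and its carriers that the text names were picked once their values were known. Of these steps only the limma test was run on simulated data, with added differences larger than any measured for the members. The members, lists, markers, motifs and alternatives were chosen with earlier results of these data known. Tables and figures were made in Python 3.11.15 (matplotlib 3.10.9, numpy 2.4.6, pandas 2.3.3).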

Additional observations from a re-analysis of the deposited data

How the results depend on the processing

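No member probe set passed the threshold in any of 20 alternatives (limma): pseudocounts of 1 and 21, array weights, the replicate block, equal medians, a robust or no trend in the variance, quantile normalization, no filter or a 60th percentile filter, each of 6 arrays left out, 1 probe set or the mean of probe sets per gene, and a cardiac or brown adipocyte marker covariate. The count of all probe sets past it, 10, became 6 with no filter, 5 with no variance trend, 6 with the mean of probe sets per gene, 6 with the cardiac covariate and 0 with the brown adipocyte covariate, and ran from 5 to 16 with single arrays left out, the highest without high fat replicate 1 and the lowest without high fat replicate 2 or chow replicate 2. The 1 member with an unadjusted p under 0.05 became 2 with no filter and with 1 probe set or the mean per gene, as Pcca joined Bckdhb, 0 with the brown adipocyte covariate, and 0 to 3 with single arrays left out, where 3 came from leaving out high fat replicate 1 and 0 from leaving out replicate 2 of either diet. The 7 higher probe sets of 11 became 3 with the brown adipocyte covariate, 9 with the cardiac covariate and 8 with array weights. With no filter they were 8 of 12. They ran from 7 to 11 with single arrays left out, when 11 or 12 were tested, the highest being 11 of 12 without high fat replicate 3. The median of 0.10 changed sign in 1 of the 20, the brown adipocyte covariate, at -0.16.

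Among single members the log2 fold change also changed sign with the brown adipocyte covariate for Bckdha (-0.14), Bckdhb (-0.10), Pcca (-0.16), Pccb (-0.37), Hibadh (-0.25 and -0.21), Bcat2 (0.33) and Dbt (0.26). Dbt was 0.011 with array weights and 0.16 with the cardiac covariate, which gave 0.068 for the brighter Ivd probe set. With single arrays left out, Dbt ran from -0.57 to 0.12 (0.014 without high fat replicate 3), this Ivd probe set from -0.31 to 0.093 (0.020 without chow replicate 3, 0.093 without high fat replicate 3), Bcat2 from -0.55 to 0.031 and the dimmer Hibadh probe set from -0.022 to 0.15. The causes were not tested.

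Same-numbered arrays deviated together at r of 0.03, 0.17 and -0.11, and arrays of unlike number at -0.16 to 0.14. With 3 arrays per diet these values cannot tell whether arrays of the same number shared any handling. With the replicate block, 5 of all probe sets passed and no member's call changed. Low signals of Bcat2 and Mccc2 limit what can be said of these.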

Other observations

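Uptake and cofactor genes of the pathway gave these values. Slc25a44, Btd, Mmachc, Mmaa, Mmab and Mmadhc were among the other genes of the pathway counted above. Slc3a2, the heavy chain of the large neutral amino acid carriers, had signals of 277.7, 426.0 and 486.3 on high fat diet and of 368.1, 432.2 and 352.9 on chow, a log2 fold change of 0.01 ± 0.20. Slc7a5, its light chain that carries leucine, had 73.1, 56.6 and 102.9 against 90.2, 127.4 and 88.6, a log2 fold change of -0.39 ± 0.24. Slc25a44, the mitochondrial carrier of branched-chain amino acids, had a mean of 165.2 on each diet. Neither the carriers nor Btd, which recycles the biotin of the carboxylases, passed the threshold. Btd had 174.1, 172.3 and 146.4 against 185.1, 181.8 and 178.6, lower on every high fat array, with a log2 fold change of -0.15 ± 0.15 (adjusted p = 0.878, limma). Of the genes that process cobalamin for the mutase, Mmachc was higher on every high fat array, at 74.6, 57.7 and 68.8 against 57.3, 54.2 and 45.6 (log2 fold change 0.32 ± 0.21, adjusted p = 0.793), and the diets overlapped for Mmaa, Mmab and Mmadhc.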
